A study of Mus musculus with 29 samples.

Results

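The histone genes described here are the mouse genes of the replication-dependent core histones (H2A, H2B, H3 and H4) and of the linker histones (H1), chosen by symbol alone: every gene named H1f, H2ac, H2bc, H3c or H4c followed by a number. Of 22779 gene IDs with a value, 67 met the rule, with 10 H1, 17 H2A, 16 H2B, 12 H3 and 12 H4 genes. They were read in 29 RNA libraries from alveolar septa of C57BL/6 wild-type mouse lung, cut from frozen sections by laser capture microdissection, a method that lifts chosen areas under the microscope and here avoided large vessels and bronchi. The study followed mRNA through the formation of alveoli, with 2 animals at each of 14 ages from E16.5 to P23 and 1 animal at P28, where E is the embryonic day and P the day after birth. The ages were joined into 4 groups by stage. The prenatal group holds both E ages (4 libraries), the postnatal saccular group the ages from P0.5 to P2.5 (8 libraries), the early alveolar group those from P4 to P10 (8 libraries), and the late alveolar group those from P13.5 to P28 (9 libraries). No animal was treated or carried an engineered allele, each library came from 1 animal, and a letter or number after the age marks the animal. A septum holds epithelial, endothelial, mesenchymal and blood cells together, so a value is an average over all of them.

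Core histones form the spool around which DNA is wound, and linker histones bind where the DNA enters and leaves that spool. A cell that copies its DNA needs new histones at once, and the replication-dependent genes are switched on as S phase, the phase of DNA copying, begins. Unlike nearly all other mRNAs of animal cells, theirs have no poly(A) tail: they end in a short stem-loop, which the stem-loop binding protein, made from Slbp, holds through processing, export and translation. H1f0 and H1f10 are replacement linker histones, which are made outside S phase as well, and H1f6, H1f7, H1f8, H2ac1 and H2bc1 are genes of the germ line. In the lung, cell division is high in the fetus, falls around birth and rises again as septa form.

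The stem-loop is the feature that sets these mRNAs apart, and its letters are shown for some members. The search asked for a hairpin with a stem of 6 bases and a loop of 4. The stem had to begin with GG, go on in C or T and end in T, and the loop had to be free of G. Part of the likeness between the hairpins was therefore set by the search. Such a hairpin was found in the GENCODE M21 transcripts of 43 of the 67 members, and its share over all transcripts was not counted. In the other 24 these letters were not found in the annotated transcripts, which says nothing about the mRNAs themselves. The sequences are written 5′ to 3′ in DNA letters, with the stem and loop in capitals and up to 5 flanking bases in lower case:
H1f4: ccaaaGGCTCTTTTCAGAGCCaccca
H3c2: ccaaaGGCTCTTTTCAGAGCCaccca
H2ac20: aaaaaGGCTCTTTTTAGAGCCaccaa
H2bc3: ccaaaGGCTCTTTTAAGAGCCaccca
H4c4: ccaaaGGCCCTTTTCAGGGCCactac
H4c2: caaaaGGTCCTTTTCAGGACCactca
The first hairpin, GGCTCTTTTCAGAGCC, was found in 24 members of the H1, H2A, H2B and H3 classes and in no H4 gene. In contrast, all 11 H4 genes with a hairpin had another hairpin, as in H4c4 and H4c2. The 24 without a hairpin include the replacement genes H1f0 and H1f10 and the germ line genes H1f7 and H1f8, but also the replication-dependent genes H1f1, H1f5, H2ac10, H2ac15, H2bc15 and H2bc18, and the germ line gene H1f6 had one.

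Promoter windows, from 250 bases before to 50 bases after the RefSeq gene start (GRCm38.p6), were on hand for 62 of the 67 members, 63 windows in all. No window was on hand for H2bc4, H2bc21, H3c1, H3c7 and H4c14. The motif CCAAT was in 52 of the 63 windows (82.5%) on either strand, against 37.4% of all 32851 windows of the same length, and TATAA was in 46 (73.0%) against 24.9%. CCAAT stood in every H2A, H2B and H3 window and in 3 of 11 H4 windows. The octamer ATTTGCAT was in 6 of 17 H2A and 7 of 15 H2B windows, in none of the H1, H3 or H4 windows, and in 1.74% of all windows. Every H2B match was on the gene's strand and every H2A match on the other strand. The windows of H2ac12 and H2bc12 overlap, as do those of H2ac8 and H2bc8 and of H2ac1 and H2bc1. In each of these pairs the same octamer was counted in both classes. The CCAAT and TATAA counts also include letters shared by overlapping windows. AAACACA was added to the search after the windows had been read. It was in 9 of the 63 member windows (14.3%), against 7.18% of all windows. These were 5 of 10 H1, 2 of 17 H2A and 2 of 15 H2B windows, and none of the H3 or H4 windows. A match says only that the letters are there.

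The windows of the most abundant linker gene and of the replacement linker gene H1f0 are printed to set a replication-dependent gene beside a replacement gene. The last window is that of H2bc15, which spans the whole stretch between it and H2ac15, a gene read the other way, and reaches into both genes. Capitals mark the motifs searched on either strand, all windows are written 5′ to 3′ on the gene's strand, and H1f4 (chr13:23622509-23622808) is on the minus strand while H1f0 (chr15:79027962-79028261) and H2bc15 (chr13:21753826-21754125) are on the plus strand:
H1f4: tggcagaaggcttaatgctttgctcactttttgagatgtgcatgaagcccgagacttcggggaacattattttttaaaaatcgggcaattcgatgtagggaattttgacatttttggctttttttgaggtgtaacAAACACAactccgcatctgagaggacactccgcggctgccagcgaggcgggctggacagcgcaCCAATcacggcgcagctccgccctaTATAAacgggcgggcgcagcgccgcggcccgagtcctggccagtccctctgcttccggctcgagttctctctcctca
H1f0: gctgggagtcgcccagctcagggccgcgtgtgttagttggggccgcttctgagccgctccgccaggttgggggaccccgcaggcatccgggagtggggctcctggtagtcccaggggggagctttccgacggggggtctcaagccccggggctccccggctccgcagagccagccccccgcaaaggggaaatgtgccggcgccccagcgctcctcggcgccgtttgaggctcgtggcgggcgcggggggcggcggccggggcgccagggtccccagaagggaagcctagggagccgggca
H2bc15: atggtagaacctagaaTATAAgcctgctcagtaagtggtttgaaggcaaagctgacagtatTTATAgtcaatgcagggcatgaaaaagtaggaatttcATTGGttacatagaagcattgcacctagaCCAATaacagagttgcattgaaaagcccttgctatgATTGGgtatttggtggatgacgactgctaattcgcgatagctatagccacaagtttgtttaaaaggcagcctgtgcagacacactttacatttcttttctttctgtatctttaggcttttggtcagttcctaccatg
In the H1f4 window AAACACA began 115 bases, CCAAT 52 bases and TATAA 27 bases before the start. The H1f0 window held none of the motifs searched.

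The deposited unit is FPKM, which scales fragments to transcript length and to the mapped total, so levels of different genes can be set side by side per length. The number of reads was not given, and the depth behind each value is unknown. Marker genes of the septa (12 genes, among them the surfactant gene Sftpc and the endothelial gene Pecam1) summed to between 2856 and 23062 FPKM in each library. Airway markers (Scgb1a1 and 4 more) were also read in every library, at 197 to 5815. Both sums were lowest in the E16.5 libraries. The septal sum was 6022 in E16.5-9 and 2856 in E16.5-2, and the airway sum was 197 and 315 there. P10a, P19d and P19f listed 416, 578 and 242 of 8623 well-expressed coding genes at 0, against 1 to 112 in the other libraries, and 24, 44 and 33 of the tested histone genes stood at 0 there. Other libraries also listed tested histone genes at 0: 25 in P13.5c, 24 in P23e, 21 in P23f, 21 in P28c and 20 in P13.5d. P7c had 16, P15e 10 and P15c 5. A listed 0 can be a failed estimate, so ranges are given and results are repeated without P10a, P19d and P19f. The zeros of the other libraries stay in those repeats.

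The 67 genes differed in level by orders of magnitude. Of the members, 10 averaged over 100 FPKM and 13 averaged under 1. H1f4 led with a mean of 1159 FPKM, followed by H1f2 with 457, H2ac20 with 315, H2ac10 with 314 and H1f3 with 286. Summed per library, the whole group took from 0.259% of all FPKM in P19d to 3.63% in E16.5-2. The germ line genes were at or near 0: H1f6 reached 4.71 FPKM at most and was listed at 0 in 21 libraries, H1f7 was listed at 0 in all 29 libraries, and H1f8, H2ac1 and H2bc1 averaged under 0.05 FPKM. H2ac18, H2ac19, H2ac23, H2ac24, H2bc23, H3c14, H3c15 and H4c18 also averaged under 1 FPKM. These 8 genes share much sequence with other genes: 63.5% to 100% of their 50-base words stood in a transcript of another gene, against a median of 49.3% over all members. Tested members named below also shared much, among them H3c10 (93.9%), H2ac12 (90.7%), H2bc15 (86.4%) and H2ac10 (79.7%). The deposited values could split such reads either way, so the single-gene levels of members that share much sequence are uncertain.

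Of the 67 members, 55 reached 1 FPKM in at least 4 libraries and were tested together with all other genes that did, 14616 in total. The 12 that did not are H1f7, H1f8, H2ac1, H2bc1 and the 8 genes just named. Tests were made with limma on log2(FPKM + 1), so the change of low genes is understated, and adjusted p-values (Benjamini-Hochberg) run over all 14616 genes with a threshold of 0.05.

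By age means the 4 core classes were highest at E16.5, were low after birth and stood high again at P4 and P5. After P10 they were below P4 and P5, but not evenly low. The mean core sum was 751 FPKM at P13.5 and 1824 at P15. The mean H4 sum at P15 (320) was near that at P10 (326) and above those from P0.5 to P2.5 (183 to 219). The mean H1 sum of an age was highest at P4, although the highest library was E16.5-2, and H1f4 made up 50.9% to 69.3% of it in the postnatal saccular libraries. The core histones (57 genes) summed to 6375 FPKM in E16.5-9 and 8439 in E16.5-2. They were at 2943 and 2572 in the 2 E18.5 libraries, and in 7 of the 8 postnatal saccular libraries they were between 604 and 1882. The exception was P0.5f, at 3650. At P4 they stood at 5072 and 4512, at P5 at 4385 and 2510, and at P10 at 1551 and 976. In the late alveolar group the sum ran from 359 in P19d over a median of 580.1 to 2402 in P15c. Core histone mRNA at P4 was above that at E18.5 in both animals.

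**Figure D1:**
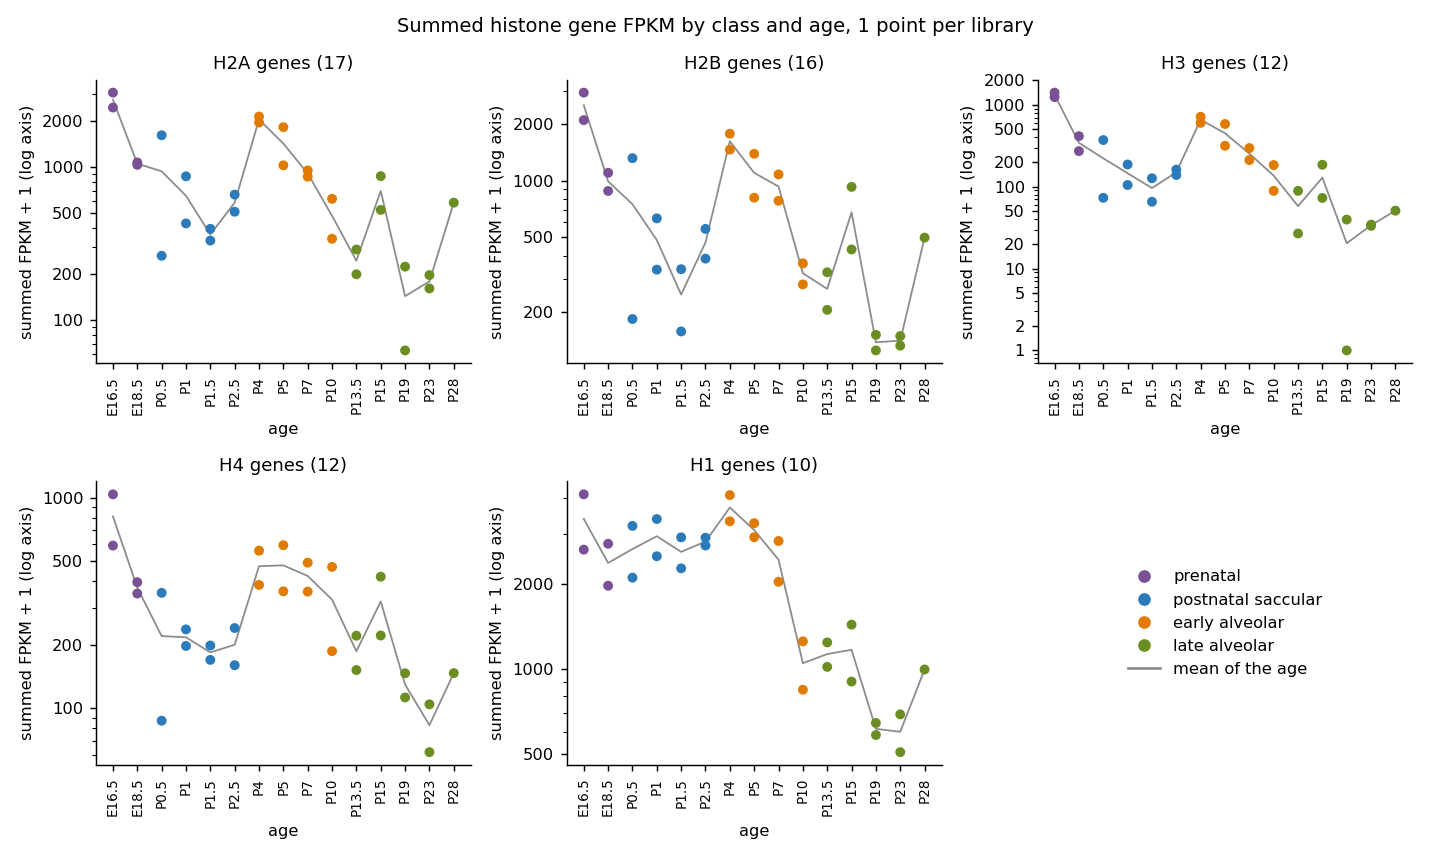
Summed FPKM plus 1 of the genes of each histone class (log axis) against age, 1 point per library, coloured by stage group, with a line through the mean of each age. The core classes are low between P0.5 and P2.5 apart from P0.5f and are high again at P4, while the H1 sum stays between 1965 and 4132 up to P7 and is at most 1431 from P10 on.

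The first comparison asked how the histone genes changed across birth. A part of the core histone genes fell, and 0 linker histone genes passed the test. Between the prenatal and the postnatal saccular group 13 of 55 members fell and 0 rose, against 6.81% of all genes tested that fell and 9.11% that rose. At an unadjusted p under 0.05, 35 members were lower and 0 higher. The 13 were 3 H2A genes (H2ac10, H2ac11, H2ac12), 3 H2B (H2bc6, H2bc14, H2bc22), 4 H3 (H3c2, H3c3, H3c4, H3c10) and 3 H4 (H4c6, H4c11, H4c17). The median change of the members was -1.88 on the log2 scale, against -0.00 for all genes.

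H3c2, the most abundant H3 gene, was at 428, 526.4, 172 and 91.8 FPKM in the prenatal libraries and at 4.77 to 101 (median 18.5) after birth. Only P0.5f reached the prenatal range. H3c2 fell by 3.53 on the log2 scale (SE 0.88, adjusted p = 0.00616). H2ac10, the second most abundant H2A gene, was at 936, 805, 406 and 428 FPKM before birth and at 29.6 to 671 (median 114) after it, and fell by 2.31 (SE 0.76, adjusted p = 0.0374). Here again P0.5f alone lay within the prenatal range. H4c11 was at 50.6, 56.0, 19.0 and 3.45 FPKM before birth and listed at 0 in all 8 postnatal saccular libraries (adjusted p = 0.00205). H4c17 had prenatal values of 15.0, 4.73, 2.69 and 13.8 FPKM and was listed at 0 in 7 of the 8 later ones, with a change of -2.79 (SE 0.56, adjusted p = 0.000845), but 89.8% of its 50-base words are shared with other genes.

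The E16.5 libraries carried much of this fall. Already between E16.5 and E18.5, 41 of 55 members were lower in both E18.5 libraries than in both E16.5 libraries, where 28.4% of all genes were. Only H2bc21 was higher in both, where 20.6% of all genes were. Without E16.5-9 the count of members that fell at birth was 3, and without E16.5-2 it was also 3. When only E18.5 stood for the prenatal stage it was 1 (H4c17), with a median member change of -1.11 against 0.05 over all genes, whereas without P10a, P19d and P19f it was 24. It was 7 without P0.5e, 8 without P1e, 7 without P1.5e and 20 without P19d. Markers of other cell types moved with the comparison. Alas2, the first enzyme of heme synthesis in red cell precursors, was at 68.7, 42.1, 90.1 and 46.9 FPKM before birth and at 2.37 to 23.8 after it, and fell by 2.48 (SE 0.73, adjusted p = 0.0188). Of 5 airway genes 3 rose (Scgb1a1 by 5.15, Tppp3 by 2.29 and Cyp2f2 by 1.86), with a sum of 197 to 1256 FPKM before birth and 688 to 5116 after it. Of 3 tested neutrophil genes 2 rose (S100a9 by 3.001 and Camp by 2.23), with a sum of 47.0 to 147 before and 207 to 567 after birth. Of 12 septal genes 5 rose, among them Ager of alveolar type I cells by 2.88 and Sftpb of type II cells by 2.05, and Pdgfra of fibroblasts fell by 1.30. Of 5 lymphoid genes 1 rose, the B cell gene Ms4a1 by 1.85, and 2 of the 5 estimates were below 0. The lymphoid sum was 1.47 to 76.5 FPKM before birth, highest in E16.5-2, and 7.53 to 22.6 after it. The smooth muscle gene Myh11 rose by 0.70, and the cartilage gene Col2a1 fell by 1.14. Fewer cells of a type and less RNA per cell cannot be told apart in such bulk samples, and the part of these cell types in the fall was not tested.

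The second comparison asked whether the genes rose again as alveoli began to form. The estimates pointed upward for 48 of 55 members, with a median of 0.85 on the log2 scale against -0.03 over all genes, but H2ac11 was the single member past the threshold. Over all genes 0.527% rose and 0.937% fell. At an unadjusted p under 0.05, 14 members were higher and 0 lower. H2ac11, a replication-dependent H2A gene, was at 0, 6.74, 0, 0.910, 0, 0, 4.30 and 5.55 FPKM in the postnatal saccular libraries and between 4.05 and 43.3 (median 19.5) in the early alveolar ones. The groups overlapped in P10f and the highest saccular libraries. H2ac11 rose by 3.14 (SE 0.65, adjusted p = 0.0127). The early alveolar group is not uniform: with the P10 libraries placed in the late group, an arrangement chosen after the values were seen, 0 members passed the threshold. In the same comparison Msln fell by 1.97 (SE 0.50, adjusted p = 0.0391) and Camp by 2.55 (SE 0.38, adjusted p = 0.000735). Of the septal genes, Pdgfra rose by 0.89 (SE 0.15, adjusted p = 0.00217) and Abca3 fell by 0.93 (SE 0.22, adjusted p = 0.0252). The part of these cell types was not tested. Without P10a, P19d and P19f, H4c2 and H4c11 rose as well, 3 members in all, and 2 members rose without P10a, without P1.5d or without P4e.

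The third comparison asked what happened as septation came to its end. Histone mRNA fell across all classes: 28 of 55 members fell after P10 by this grouping and 0 rose, against 7.47% and 3.89% of all genes. At an unadjusted p under 0.05, 43 members were lower and 0 higher. The members that fell were 6 of 8 tested H1 genes, 5 of 12 H2A, 6 of 14 H2B, 7 of 10 H3 and 4 of 11 H4. The median change was -2.11 on the log2 scale, against -0.09 over all genes.

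H3c1 had the smallest p-value among the members. It stood at 58.7, 56.9, 20.7, 23.1, 9.20, 19.7, 38.6 and 3.62 FPKM from P4 to P10, and in the late alveolar libraries at 0 in 6 of 9, with a highest value of 6.24 in P15c. It fell by 4.01 (SE 0.56, adjusted p = 1.23e-05), and the groups overlapped only between P10f and P15c. H4c6 was at 12.9 to 191 FPKM (median 49.0) in the early and at 0 in 7 of 9 late libraries, where P15c reached 32.9 and P15e 12.7. It fell by 4.68 (SE 0.73, adjusted p = 6.04e-05). Of the 2 most abundant H2A genes, H2ac20 fell from a median of 354 FPKM (181 to 576) to 154 (21.1 to 301), a change of -1.33 (SE 0.37, adjusted p = 0.0178). H2ac10 fell from 438 (91.3 to 1159) to 65.5 (10.2 to 296), a change of -2.53 (SE 0.61, adjusted p = 0.00547). The groups overlapped in both genes, with P15c, P15e and P28c the highest late libraries.

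The most abundant H2B gene, H2bc18, had medians of 441, 64.7, 216 and 54.6 FPKM in the 4 groups in order of age, and it did not pass the threshold at birth (-2.35, SE 0.92, adjusted p = 0.0824) or late (-2.11, SE 0.73, adjusted p = 0.0586). H2bc3, with medians of 268, 46.3, 202 and 39.9 FPKM, had a late change of -2.996 (SE 0.80, adjusted p = 0.0125), and H2bc4 of -1.45 (SE 0.36, adjusted p = 0.00782). H3c2, H3c4 and H3c7 fell by 3.83, 3.75 and 2.75, with SEs of 0.70, 0.64 and 0.51 (adjusted p = 0.000416, 0.000169 and 0.000465). Of the other abundant H3 genes, H3c3 had medians of 127, 7.68, 48.5 and 9.75 FPKM, fell by 3.76 at birth (SE 1.16, adjusted p = 0.0259) and did not pass late (adjusted p = 0.108). H3c13 fell late, by 2.50 (SE 0.69, adjusted p = 0.0164), with medians of 45.6 and 17.6 FPKM in the early and late groups. H4c8 had medians of 68.3 and 36.6 FPKM there (-1.36, SE 0.58, adjusted p = 0.134). H4c4, the most abundant H4 gene, was at 60.5 to 181 FPKM (median 124) in the early and 40.9 to 221 (median 55.3) in the late libraries, with a change of -0.75 (SE 0.32, adjusted p = 0.141). It did not pass the threshold in any comparison. H2bc21 was the only tested member with a late estimate above 0 (0.48, SE 0.42, adjusted p = 0.521). This gene, known in mouse as a variant of olfactory neurons, was at 0 to 7.91 FPKM, and its levels in the stage groups overlapped throughout.

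The late fall held without P10a, P19d and P19f, which listed the most coding genes at 0: 28 members fell, and 26 of them were the same genes. Other late libraries with many tested members at 0, such as P13.5c with 25, stayed in that run. With the P10 libraries placed in the late group 36 fell, 27 of them shared. Of all genes called in this comparison, 34.2% rose on the deposited scale and 46.2% rose after quantile normalization, under which 29 members fell and 0 rose.

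**Figure D2:**
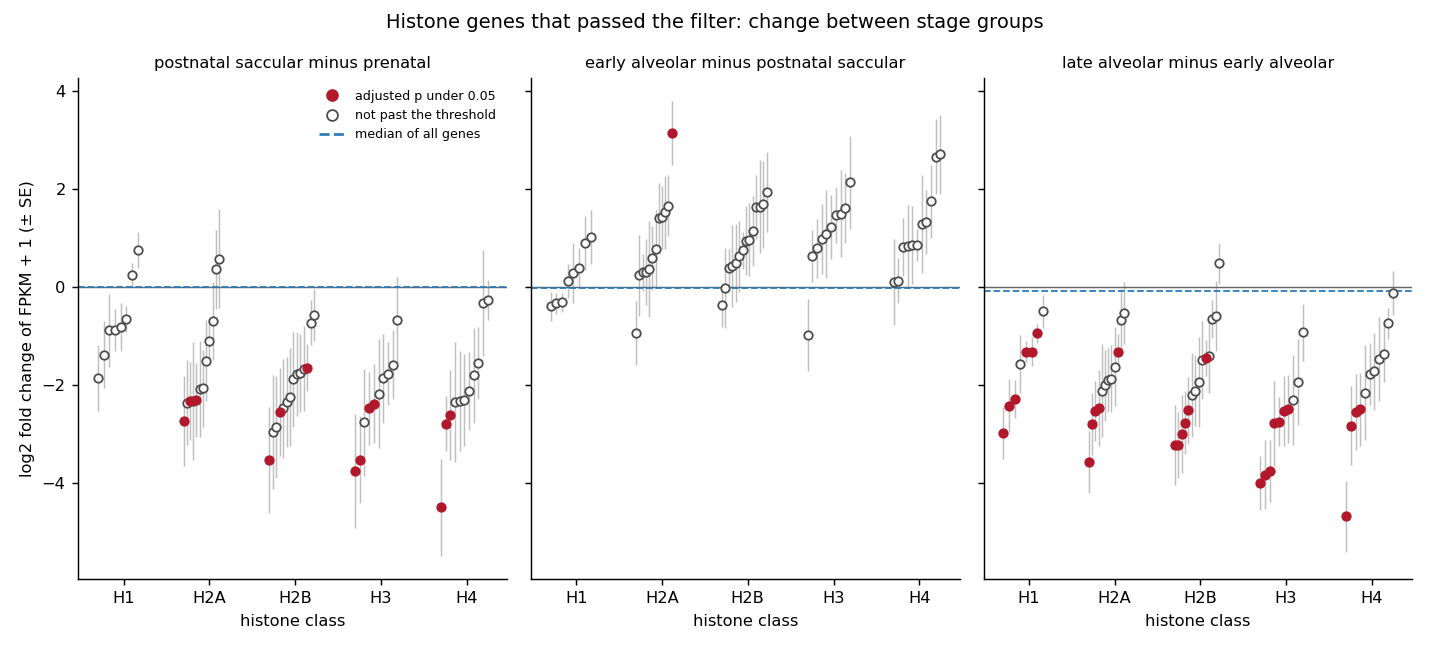
Log2 fold change of FPKM plus 1 for the 55 tested members, by histone class, in the 3 stage comparisons, with bars of 1 SE. Red points passed an adjusted p of 0.05 and the dashed blue line is the median of all 14616 genes. The lowest H4 point at birth is H4c11, which was listed at 0 in all later 8 libraries of that comparison, so its position depends on the added 1. In the late comparison 54 of 55 points lie below 0, and in the early comparison 48 lie above it.

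H1f4 held the largest share of the linker histone sum, which therefore is given with and without it. The H1 sum was at 1965 to 4132 FPKM in the prenatal, 2098 to 3380 in the postnatal saccular and 842 to 4107 in the early alveolar libraries, and at 507 to 1431 in the late ones. Without H1f4 it was at 1220 to 2914 FPKM in the prenatal libraries, 788 to 1570 in the postnatal saccular, 412 to 1706 in the early alveolar and 234 to 715 in the late ones. At birth 6 of 8 H1 estimates were below 0, among them H1f1 (-1.86), H1f5 (-1.39) and H1f2 (-0.65), and the fit of 15 age groups called these 3 genes lower. The difference between the classes was not tested. All 5 replication-dependent H1 genes (H1f1 to H1f5) and H1f0 fell in the late comparison, and none of the 8 tested H1 genes passed the threshold in the other 2 comparisons. The H1 genes differ in their S phase dependence, which is why they are described one by one.

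H1f4 was at 728, 1219, 745 and 1360 FPKM before birth and at 1214 to 2343 (median 1668) from P0.5 to P2.5. The groups overlapped in P0.5e and P1.5d, and the other 6 postnatal saccular libraries lay above all 4 prenatal ones. The estimate was 0.75 (SE 0.37, adjusted p = 0.176) and did not pass the threshold. It passed after quantile normalization (adjusted p = 0.0224) and in a fit of 15 age groups (adjusted p = 0.0316). H1f4 then fell by 1.32 in the late comparison (SE 0.29, adjusted p = 0.0031). Its share of the H1 sum was 27.6% and 29.5% at E16.5, 37.9% and 49.2% at E18.5, and 48.4% to 69.3% in every later library.

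H1f2 ran from 713 to 1060 FPKM in the prenatal libraries, from 417 to 627 in the postnatal saccular, from 167 to 780 in the early alveolar and from 129 to 270 in the late alveolar libraries. It fell by 1.32 at the last step (SE 0.21, adjusted p = 9.83e-05). H1f3 was at 509, 1073, 179 and 446 FPKM before birth, 163 to 598 in the postnatal saccular group, 127 to 601 in the early alveolar and 28.8 to 266 in the late group. Its fall of 2.29 (SE 0.39, adjusted p = 0.000165) was steeper than that of H1f2, although the difference between the 2 genes was not tested. H1f1 and H1f5 were low after birth and high again at P4 and P5. H1f1 was at 216 and 337 FPKM at E16.5, 70.4 and 57.9 at E18.5, 18.2 to 52.7 in 7 of 8 postnatal saccular libraries, 113 and 109 at P4 and 0 to 45.2 in the late group. It fell by 2.98 (SE 0.54, adjusted p = 0.000335), and H1f5 by 2.43 (SE 0.54, adjusted p = 0.00307).

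H1f0, the replacement linker histone known to build up in cells that have stopped dividing, was nearly level and then dropped. It was at 92.5 to 174 FPKM in all 18 libraries up to P7 and at 35.6 to 74.4 in all 11 from P10 on. There was no overlap. The late change was -0.95 (SE 0.19, adjusted p = 0.00117). H1f2 showed the same break, with at least 401 FPKM up to P7 and at most 270 from P10. These 2 were the only members whose libraries from P10 on all lay below all earlier ones, a pattern that 0.137% of all genes (20 of 14616) had, and 0 members lay wholly above, as did 0.116% of all genes. The place of this split was chosen after the values were seen. H1f10, the other replacement gene, was low (0 to 46.7 FPKM) and did not pass the threshold (late change -1.57, SE 0.59, adjusted p = 0.0864).

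**Figure D3:**
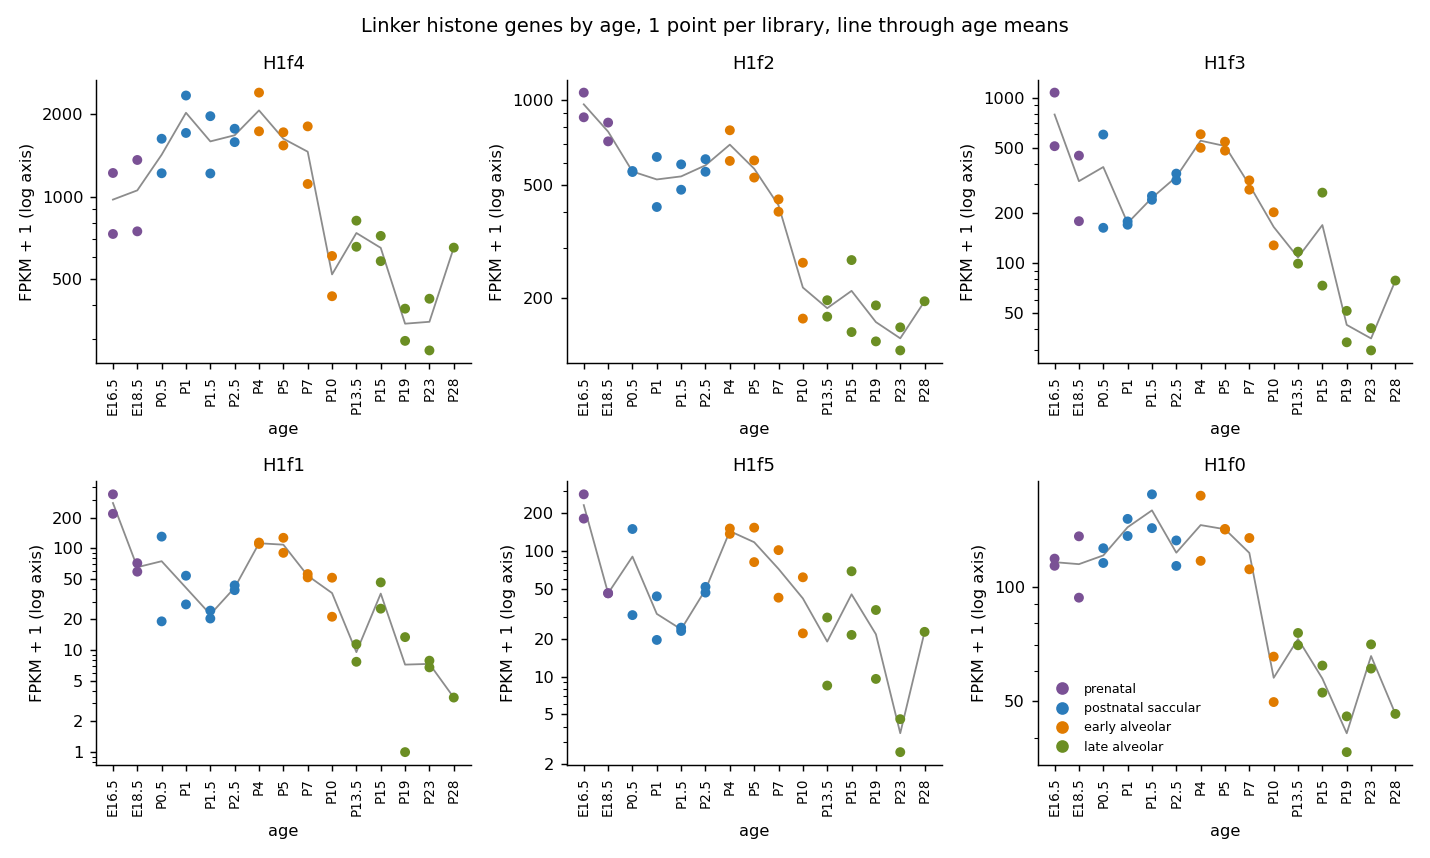
FPKM plus 1 of 6 linker histone genes (log axis) against age, 1 point per library, coloured by stage group, with a line through the age means. H1f1 and H1f5 are lower after E16.5 and high again at P4 and P5, while H1f0 and H1f2 show no overlap between the 18 libraries up to P7 and the 11 from P10 on.

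The balance between core and linker mRNA moved with these courses. The ratio of the core to the linker sum was 2.42 and 2.04 at E16.5 and 1.50 and 0.93 at E18.5. In the postnatal saccular libraries the ratio was 0.29 to 0.56, except for 1.14 in P0.5f. It lay between 0.86 and 1.36 in the early alveolar group and between 0.57 and 1.68 in the late group. The H1 sum of the postnatal saccular libraries (2098 to 3380 FPKM) lay around that of E18.5 (1965 and 2763).

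Genes of the S phase machinery (22 genes, such as Pcna, Mcm2 and Ccna2) moved in the same direction as the core histones in each comparison by their list medians (-1.24, 0.70 and -1.03). Their sum was 886 and 939 FPKM at E16.5, 213 and 221 at E18.5, 109 to 191 in 7 postnatal saccular libraries, 377 in P0.5f, 319 and 524 at P4 and 87.6 to 233 in the late group. In the birth comparison 9 of 22 fell and 0 rose, in the early comparison 0 passed the threshold (7 higher and 0 lower at an unadjusted p under 0.05), and in the late comparison 12 fell and 0 rose. Ccna2, the cyclin of S phase, was at 117, 95.9, 28.1 and 30.4 FPKM before birth and at 3.59 to 27.8 after it, and fell by 2.72 (SE 0.55, adjusted p = 0.000984). It fell by 2.89 in the late comparison (SE 0.44, adjusted p = 4.49e-05). Of 12 mitosis genes 10 fell at birth and 12 in the late comparison, among them Top2a, which untangles DNA, by 2.83 (SE 0.58, adjusted p = 0.00108) and 2.24 (SE 0.46, adjusted p = 0.00148). The median late change was -1.996 for the mitosis list, beside -2.12 for the 47 tested core histone genes. Of 6 genes of cell cycle exit, 1 rose at birth (Cdkn1a by 1.37) and 2 fell (Cdkn1c by 1.80 and Cdkn2c by 1.57). None of these 6 passed the threshold in the other comparisons. Of 7 tested genes of a list chosen as other RNAs without a poly(A) tail, Neat1 alone passed the threshold. It rose at birth by 2.90 and in the late comparison by 1.17.

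**Figure D4:**
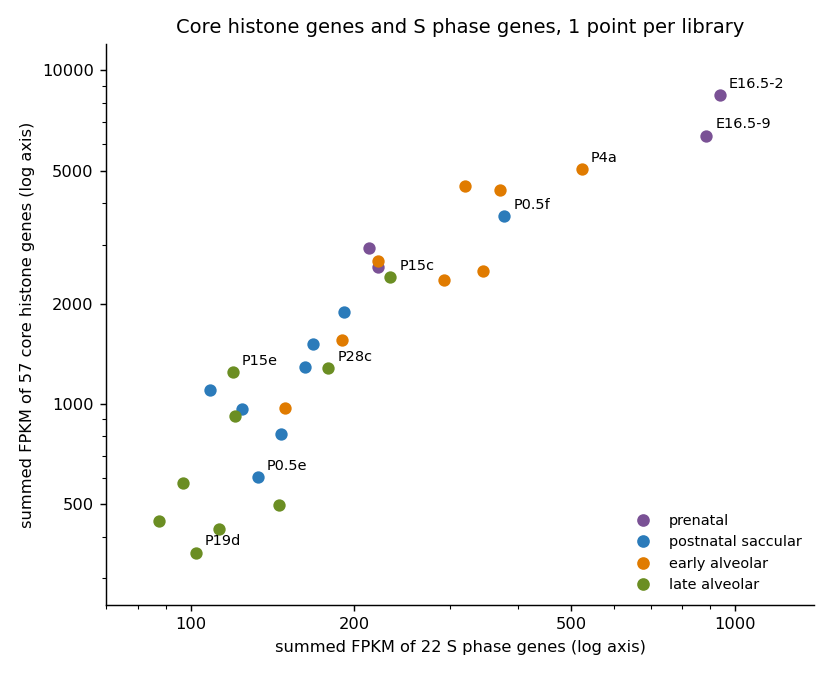
Summed FPKM of the 57 core histone genes against that of 22 S phase genes, 1 point per library, log axes, coloured by stage group. The E16.5 libraries lie at the top right, P0.5f lies with the early alveolar libraries and apart from P0.5e, and P15c lies above the other late alveolar libraries.

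The genes that process and carry histones passed the threshold less often, a difference that was not tested. Over all genes tested 6.81% fell and 9.11% rose at birth, and 7.47% fell in the late comparison. Of 16 processing genes 3 (18.8%) fell at birth, Eri1, Cstf2 and Casp8ap2. In the late comparison 1 (6.25%) fell, near the share of all genes. That one was Slbp, the stem-loop binding protein gene, which was at 9.61 to 30.6 FPKM in the early and 0 to 18.3 in the late libraries and fell by 1.38 (SE 0.37, adjusted p = 0.014). Npat, the activator of histone gene transcription, was at 5.31 to 18.4 FPKM over all libraries, with a late change of -0.29 (SE 0.17, adjusted p = 0.307). Of 16 chaperone genes, whose proteins hand histones to DNA, 2 fell at birth (Supt16 and Nap1l1) and 1 rose (Cabin1), and 2 (12.5%) fell late. These were Chaf1a, a subunit of the assembly factor that works at the replication fork (-1.46, SE 0.31, adjusted p = 0.00227), and Nasp, a carrier of H3 and H4 (-0.92, SE 0.29, adjusted p = 0.0339). In the early comparison 0 genes of either list passed the threshold, with 2 higher in each list and 1 lower among the chaperones at an unadjusted p under 0.05. The list medians in the late comparison were -0.16 and -0.30.

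Variant core histones outside the symbol rule were read as a list of 9 genes. Most are replacement histones made outside S phase as well, while the H2ax mRNA can also end in the stem-loop and Cenpa, the centromeric H3, is made late in the cell cycle. Of these 1 rose and 3 fell at birth, and 0 rose and 4 fell late, with medians of -0.74 and -0.54. H2aj rose at birth, from 8.64, 3.57, 12.7 and 16.0 FPKM to between 19.2 and 39.7, with no overlap (1.65, SE 0.27, adjusted p = 0.000103). H3f3b, which encodes the replacement histone H3.3, was at 259 to 409 FPKM before birth and at 289 to 415 after it. It fell by 0.54 in the late comparison (SE 0.14, adjusted p = 0.00944). H3f3a, which also encodes H3.3, fell at birth by 1.04 (SE 0.31, adjusted p = 0.0212). H2ax and H2az1 fell at birth by 1.94 and 1.41, with SEs of 0.54 and 0.40 (adjusted p = 0.0124 and 0.014). Other cell types also moved in the late comparison: the smooth muscle genes Acta2 and Myh11 fell, their sum being 165 to 369 FPKM in the early and 58.8 to 120 in the late libraries, the mesothelial gene Msln fell by 1.66 (SE 0.49, adjusted p = 0.0238), with a sum of 2 mesothelial genes of 9.47 to 43.4 FPKM early and 0 to 17.2 late, and the B cell genes Ms4a1 and Cd79b rose. Of the 5 lymphoid genes 2 rose, with a summed level of 11.9 to 32.8 FPKM early and 35.2 to 155 late. Of 12 septal genes 1 rose late and 2 fell. Pdgfra rose by 1.02 (SE 0.15, adjusted p = 1.7e-05). Col1a1 fell by 1.21 (SE 0.27, adjusted p = 0.0034) and Tcf21 by 0.61 (SE 0.18, adjusted p = 0.0289). The part of these cells in the histone changes was not tested.

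Animals of the same age could differ as much as stage groups. In the 14 pairs of same-age libraries, the core sum differed by a factor of 1.05 to 6.04 (median 1.36). The library with more core histone mRNA also had more linker mRNA in 11 pairs and more S phase mRNA in 10. It had more mitosis mRNA in 8, which is near an even split of the 14 pairs. These counts were not tested. The widest pair was P0.5: P0.5e had a core sum of 604 FPKM and P0.5f of 3650. Of 55 members 42 were at least 2-fold higher in P0.5f and 2 at least 2-fold lower, against 9.89% and 8.91% of all genes. Mitosis genes summed to 58.8 FPKM in P0.5e and 442 in P0.5f, and smooth muscle genes to 132 and 351. At P15 the core sum was 2402 in P15c and 1247 in P15e, 24 members were at least 2-fold higher in P15c and 1 lower, against 8.98% and 3.93% of all genes, and mitosis genes summed to 267 and 76.2. With 1 animal on each side these are values without a test. Lymphoid genes were also higher in P15c, at 155 against 62.8 FPKM.

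The histone genes lie close together. Of the 67, 53 lie on chromosome 13 between 21715711 and 23934913, 10 on chromosome 3 between 96219885 and 96270192, and 4 elsewhere (H1f10 and H1f8 on chromosome 6, H1f0 and H1f7 on chromosome 15). There were 11 pairs of an H2A and an H2B gene read away from each other, with starts 164 to 281 bases apart, and 9 of these pairs had both genes in the test. Levels within a pair could lie far apart or close together. H2ac20 stood above H2bc21 in all 29 libraries (means of 315 and 2.45 FPKM), although their starts lie 192 bases apart. H2bc4 stood above H2ac6 in all 29 (70.1 and 9.67 FPKM). H2ac15 and H2bc15, whose shared stretch lies in the printed window, had means of 113 and 134 FPKM, and H2bc15 was the higher one in 19 libraries and H2ac15 in 9. Both fell in the late comparison, by 2.79 (SE 0.63, adjusted p = 0.00328) and 2.52 (SE 0.69, adjusted p = 0.0152).

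A test of any change with age, with a smooth curve over all 29 libraries in place of stage groups, called 32 of 55 members, against 30.7% of all genes. They were 7 of 8 H1, 7 of 12 H2A, 7 of 14 H2B, 6 of 10 H3 and 5 of 11 H4 genes. The smallest adjusted p-values were those of H1f2 (3.08e-09), H1f0 (1.92e-07), H3c6 (1.46e-06) and H1f4 (1.71e-06). H2ac11, which moved in all 3 stage comparisons, was not called by this test (adjusted p = 0.151).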

How the data were processed

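RNA was taken from laser-captured alveolar septa, and libraries were made with a TruSeq stranded total RNA kit after ribosomal RNA depletion, so mRNAs without a poly(A) tail were kept. The authors deposited 1 table of FPKM, with 1 column per animal and NCBI gene IDs as rows. Their processing notes name STAR 2.5.1, Cufflinks 2.2.1 and the mouse build mm10, and the gene annotation is not given in the sources used here. Symbols and coordinates were taken from RefSeq (GRCm38.p6) for 22718 of 22779 IDs. Where an ID had several rows, as for 7 members, the row with the highest mean was used.

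The 14616 genes that reached an FPKM of 1 in 4 or more libraries were tested with limma 3.58.1 in R 4.3.3, with a trended variance, on log2(FPKM + 1), in 1 fit of 4 stage groups, and for age with a natural spline with 3 degrees of freedom. Adjusted p-values follow Benjamini-Hochberg over all genes. Letters of the animals pair no libraries. The fit was tested on simulated data first. Named members are the 3 with the highest mean of each class, every H1 gene, and up to 4 called members of each class with the smallest p-value in each comparison. Members against the general direction are named too, and for other lists some of the called genes. Others were named after their values were seen. The members, lists and tests were chosen with earlier results of these data known. Alternatives covered the pseudocount, filter, scaling, weights, groups and libraries left out. One marker sum is not reported here.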

Additional observations from a re-analysis of the deposited data

Results flagged for a closer look

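In 28 class sums, ratios and named genes, a library was looked for that stood far from the others of its stage group, and 25 such values were found among 112 groups. For values spread in a bell shape, chance gives about 1 in 20. FPKM values were used here without a log, so this rate need not hold. All 25 flagged values were the highest of their group, and the sums overlap in their genes. Of the 25, 14 belong to P0.5f and 10 to P15c, and the values of 1 library are not independent of each other.

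P0.5f lay far above the other postnatal saccular libraries. Its class sums were 1613 FPKM for H2A, 1315 for H2B and 370.4 for H3, its core sum was 3650 FPKM and its core to linker ratio 1.14. Among linker genes it had 598 FPKM of H1f3, 148 of H1f5 and 129 of H1f1. Among core genes it had 671 FPKM of H2ac10, 225 of H2ac15, 272 of H2bc18, 101 of H3c2, 64.5 of H3c3 and 78.7 of H4c6.

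P15c lay far above the other late alveolar libraries. Its class sums were 925 FPKM for H2B, 184 for H3 and 419.8 for H4, and its core sum was 2402 FPKM. It had 270.3 FPKM of H1f2, 266 of H1f3, 67.7 of H1f5, 141 of H2ac15, 39.3 of H3c2 and 32.9 of H4c6.

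The last value was that of the germ line gene H1f6 in P1.5e, at 3.13 FPKM.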

How the results depend on the processing

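The count of members that fell in the late comparison lay between 23 and 36 in every alternative run, against 28 in the main analysis, and the age test called 25 to 45 members, against 32. No called gene changed direction, while the early estimate of H1f4, which was not called, was -0.40 and became 0.03 with P10 in the late group. The count that fell at birth, 13, moved the most. It was 4 with a pseudocount of 0.1, 7 with no filter, 27 in a fit of 15 age groups, 26 with only the 2 groups compared, 24 without P10a, P19d and P19f, and 1 with E18.5 libraries as the only prenatal ones. Leaving out 1 library gave 3 to 20. The count that rose at birth, 0, was 1 after quantile normalization and 1 in the fit of 15 age groups, H1f4 in both. The count that rose in the early comparison, 1, was 2 after quantile normalization, 4 with array quality weights, 3 in the fit of 15 age groups, 4 with only the 2 groups compared, 3 without P10a, P19d and P19f, and 0 with P10 in the late group, and leaving out 1 library gave 1 to 2. For these changes the cause was not tested. No paired analysis was possible because the letters of the animals link no libraries across ages. The table holds no read counts, so counting error cannot be given, and the prenatal group holds only 4 libraries.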
